A study of Mus musculus with 8 samples.

Results

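The reads counted on glutamate (Glu) and aspartate (Asp) tRNA genes were examined in small RNA from the testes of 8 mice. Members were every row of the deposited table that is typed as a nuclear tRNA and named for Glu or Asp, which gave 36 gene copies out of 20558 small RNAs listed. They comprise 16 Asp copies with the anticodon GTC, 12 Glu copies with CTC and 8 Glu copies with TTC, and no other anticodon occurred. The rule reads the type and the name of a row and no count, although earlier results of these data were known when the 2 amino acids were chosen.

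The mice were C57Bl/6 adult males that carry no engineered allele according to the labels. The 4 SD mice, M1N, M2N, TN1 and TN2, were the controls and received standard chow. The 4 WD mice, M1W, M2W, M3W and M5W, received a Western-like diet rich in sucrose and butter from 3 weeks of age by the study's methods, or 4 weeks by the labels, whose text describes a high-lipid diet for all 8 mice. Whole testis was used, so germ cells and somatic cells were not separated, and in such bulk tissue fewer cells of a type cannot be told apart from less RNA per cell. Nothing in the labels says that the 4 mice of a group came from separate cages or litters, so p-values measure only the spread between these animals.

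Transfer RNAs are transcribed by RNA polymerase III, trimmed at both ends, given a CCA tail and charged with their amino acid, which they bring to the ribosome by pairing their anticodon with a codon. Mammalian genomes hold many copies of each tRNA gene, often identical in sequence and often clustered. Mature tRNAs are also cut into fragments, and fragments from the 5′ end of Glu tRNAs are known as abundant small RNAs of mature mouse sperm.

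The 36 copies carried 11 distinct gene sequences, all 72 bases long, so that counts can be compared between copies without a correction for length. Of these, 4 are shown because the differences in count between copies turn on them. The sequences were read from the NCBIM37 assembly, the build known as mm9, and are written 5′ to 3′ on the coding strand with the anticodon in capitals.
Asp-GTC sequence 1, 13 copies: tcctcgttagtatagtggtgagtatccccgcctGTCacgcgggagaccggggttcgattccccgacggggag
Asp-GTC sequence 2, 1 copy: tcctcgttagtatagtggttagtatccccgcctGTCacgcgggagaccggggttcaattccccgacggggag
Glu-TTC sequence 1, 4 copies: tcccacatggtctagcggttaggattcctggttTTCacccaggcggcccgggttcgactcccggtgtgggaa
Glu-TTC sequence 2, 2 copies: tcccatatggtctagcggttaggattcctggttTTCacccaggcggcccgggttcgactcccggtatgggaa

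Counting positions from 1 at the 5′ end of the gene, Asp-GTC sequence 2 differs from sequence 1 by G20T and G56A. Glu-TTC sequence 2 differs from Glu-TTC sequence 1 by C6T and G66A, a pair of bases that face each other in the acceptor stem. Glu-TTC sequence 3 is closer to the CTC genes than to the other TTC genes: it differs from the leading Glu-CTC sequence, that of 9 copies, at 2 of 72 positions and from Glu-TTC sequence 1 at 15. A further 5 sequences, with 1 copy each among Asp-GTC and Glu-CTC, lie 2 to 9 differences from sequence 1 of their anticodon. Of the 36 copies, 33 could form all 21 base pairs scored in the 4 stems of the cloverleaf.

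The copies lie on 12 chromosomes. The largest cluster holds 9 of them within 66086 bp of chromosome 1, where Asp-GTC and Glu-CTC genes alternate with 1 exception, and 3 of the copies that the results turn on are in it. chr1.tRNA1005-AspGTC lies at chr1:172967160-172967231 and chr1.tRNA1000-AspGTC at chr1:172995489-172995560, both on the minus strand and outside annotated genes. chr1.tRNA1002-GluCTC lies between them on the same strand, in an intron of Fcgr3, which encodes a receptor for immunoglobulin G and is read in the same direction. chr1.tRNA1547-GluTTC is far from the cluster, at chr1:34491657-34491728 on the minus strand, outside annotated genes. Of the 36 copies, 8 lie within a gene body of the GENCODE M1 annotation and 28 outside. chr14.tRNA359-GluTTC, which shares its sequence with chr1.tRNA1547-GluTTC, is in an intron of Elf1, a gene for an ETS family transcription factor, at chr14:79881475-79881546 on the plus strand.

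Some copies of 1 sequence had nearly the same counts and others did not, which bears on how all later values are read. chr1.tRNA1547-GluTTC was counted 3976, 3468, 3263 and 1766 times in M1N, M2N, TN1 and TN2, and 3504, 2296, 2402 and 3530 times in M1W, M2W, M3W and M5W. The second copy of this sequence, chr14.tRNA359-GluTTC, differed from it by at most 12 counts in any mouse, whereas the square root of the count, the error expected of independent counting, was between 42.03 and 63.05. The 9 copies of Glu-CTC sequence 1, on 5 chromosomes, spanned 2.23% to 6.55% of the highest count within a mouse. Of the 122 pairs of copies with the same sequence, 20 were within 2% of each other in every mouse, and no pair with different sequences was. The widest gap within a mouse reached 43.9% of the highest count among the copies of Asp-GTC sequence 1 and 90.3% among those of Glu-TTC sequence 1. How a read that matches several copies was counted is not given in the sources used here. Copies of 1 sequence are therefore not treated as independent measurements below, and the sums may hold the same reads more than once.

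**Figure D1:**
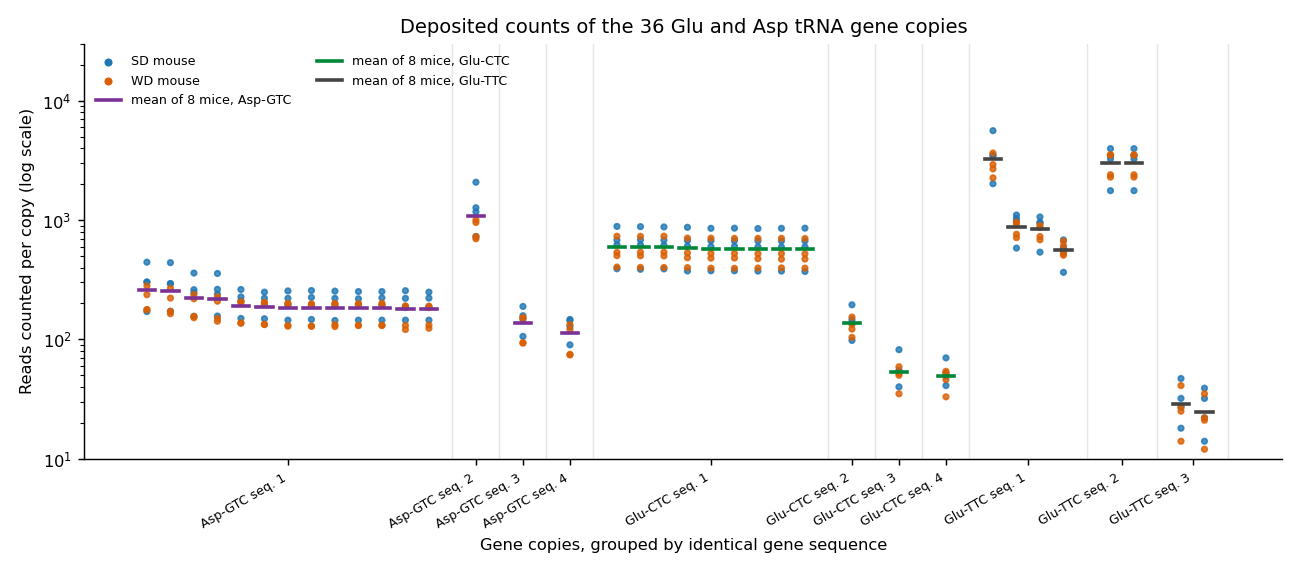
Reads counted on each of the 36 gene copies (log scale), with copies of an identical gene sequence side by side. Points are the 4 SD and 4 WD mice and bars are means over the 8 mice. The 9 copies of Glu-CTC sequence 1 form a level row at means of 573 to 594, whereas 1 of the 4 copies of Glu-TTC sequence 1 stands at 3270 above means of 562 to 884.

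Glu-TTC was the most abundant anticodon of all nuclear tRNAs in the table, with 93256 reads over the 8 mice summed over its copies. Glu-CTC ranked 3 of 48 anticodons with 43780 reads and Asp-GTC ranked 4 with 31552, and Lys-CTT lay between the Glu anticodons with 65342. The 36 copies together took 41.8% of the reads on nuclear tRNAs. Per gene copy the mean count was 1457 for Glu-TTC, 456 for Glu-CTC and 246.5 for Asp-GTC. Since the sums may hold shared reads more than once, these orders hold for the table as deposited and not for numbers of molecules. In each of the 8 mice the order was Glu-TTC, Glu-CTC, Asp-GTC, so that the 3 levels did not overlap within any library.

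Within Glu-TTC the reads were concentrated on 3 copies. chr9.tRNA961-GluTTC, at chr9:104310997-104311068 on the minus strand, had the highest count over the 8 mice of all 36 copies, with a mean of 3270. chr1.tRNA1547-GluTTC and chr14.tRNA359-GluTTC followed at 3026 each, but both were above it in M1W and M2W, so that the order did not hold in every mouse. The lowest were chr3.tRNA286-GluTTC and chr3.tRNA754-GluTTC, the carriers of sequence 3, at 28.9 and 24.6. In each mouse chr3.tRNA286-GluTTC held between 3.53% and 5.82% of the count of chr1.tRNA1002-GluCTC, the gene it nearly matches, with the lowest value in M3W and the highest in M2W.

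chr9.tRNA961-GluTTC stood apart from the other 3 copies of the same 72 bases. Its counts were 5626, 3501, 3482 and 2020 in M1N, M2N, TN1 and TN2, and 2924, 2263, 2688 and 3653 in M1W, M2W, M3W and M5W. The means of chr7.tRNA337-GluTTC, chr14.tRNA347-GluTTC and chr13.tRNA105-GluTTC were 884, 836 and 562. The count of the chromosome 9 copy was 3.10 to 5.29 times the median of these 3 in the 8 mice, with M2W lowest and M1N highest, and the excess was present on both diets. chr13.tRNA105-GluTTC was the lowest of the 4 copies in every mouse, at 0.503 to 0.728 times the median of the chr7 and chr14 copies, with M1N lowest.

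**Figure D2:**
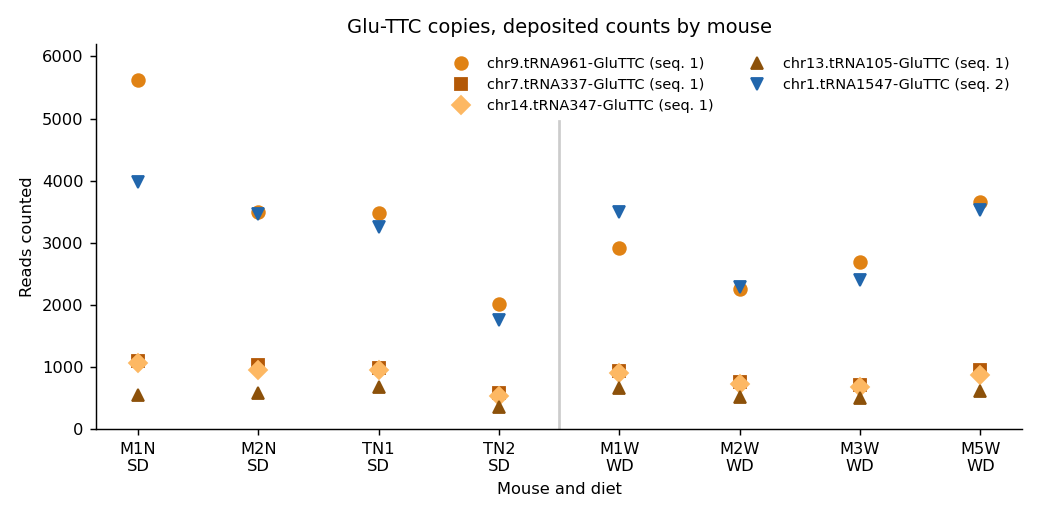
Reads counted in each mouse on the 4 copies of Glu-TTC sequence 1 and on chr1.tRNA1547-GluTTC, which carries sequence 2. chr9.tRNA961-GluTTC lies above the other 3 copies of its sequence in all 8 mice and is close to chr1.tRNA1547-GluTTC in most of them, M1N excepted.

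The gene bodies of these 4 copies are identical and only the bases around them differ. The 30 bases that follow each gene are shown for that reason, on the coding strand and with the first run of at least 4 T in capitals. Such a run ends transcription by RNA polymerase III.
chr9.tRNA961-GluTTC: cacaagatctttagctggctgctgaggagg
chr7.tRNA337-GluTTC: cagcagcTTTTTTTTTTTTTTTcttgtgac
chr14.tRNA347-GluTTC: cgccaatatcTTTTagaataaagacactag
chr13.tRNA105-GluTTC: actcattgTTTTacgaatgatcctagtact
A run of 4 T was found in this window in 29 of the 36 copies. The chromosome 9 copy was among the 7 without one, which describes these letters only and says nothing of transcription there. Since the table holds no read positions, it was not tested whether reads extended into such flanks or which part of a tRNA they came from.

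Asp-GTC also had a copy with far more counts than the rest. chr10.tRNA856-AspGTC, at chr10:90644842-90644913 on the minus strand, is by the order of names the only carrier of sequence 2. Of its 2 differences from sequence 1 only 1 is in the first 31 bases, and since the authors allowed 2 mismatches, reads of either sequence could be placed on the other. It was counted 2080, 1271, 1173 and 729 times in M1N, M2N, TN1 and TN2, and 955, 729, 697 and 1004 times in M1W, M2W, M3W and M5W. The 13 copies of sequence 1 had means of 179 to 262. chr10.tRNA856-AspGTC exceeded their median 4.80 to 8.13 times, lowest in M1W and highest in M1N.

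The 13 copies of Asp-GTC sequence 1 were less alike in count than those of Glu-CTC sequence 1. chr13.tRNA981-AspGTC and chr11.tRNA397-AspGTC had means of 262 and 253, chr13.tRNA979-AspGTC and chr11.tRNA69-AspGTC of 224 and 218, and the other 9 lay between 179 and 192. The gap between the highest and the lowest of the 13 ranged from 16.3% of the highest count in TN2 to 43.9% in M1N. The 5 copies in the chromosome 1 cluster stayed within 14 counts of each other in every mouse. The lowest Asp copy was chr2.tRNA510-AspGTC, in an intron of Aqr, a gene for a splicing-associated RNA helicase, with a mean of 114.

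The 9 copies of Glu-CTC sequence 1 were close to each other in count. chr1.tRNA709-GluCTC had the highest mean, 594, and the lowest of the 9 copies with sequence 1 had 573. The 3 remaining copies carry sequences of their own and were lower. chr17.tRNA720-GluCTC, at 2 differences from sequence 1, had a mean of 136. chr12.tRNA886-GluCTC and chr7.tRNA967-GluCTC, at 6 and 9 differences from sequence 1, had means of 53.4 and 49.6.

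The libraries held 2064562 to 3253798 counts, and 3 counts corresponded to 0.933 to 1.39 CPM, the count scaled to library size with TMM factors. Such a floor covers counting error only. miR-34b-5p, miR-34c-5p and miR-449a-5p, miRNAs of male germ cells, summed to 12019 to 16937 CPM, and piRNAs took 84.4% to 88.6% of each library, as the testis label implies. M1N and M2N stood apart: on the first principal component of log2 CPM, which held 47.3% of the variance, they were at -73.0 and -35.4, and the other 6 mice were between 4.42 and 34.5. M2W stood apart in markers of somatic cells: miR-202-5p and miR-202-3p, of gonadal somatic cells, summed to 7021 CPM there and to 4187 to 4487 CPM in the other WD mice. Over the 28 pairs of mice chi-square divided by its degrees of freedom lay between 2.42 and 22.2. All pairs thus differed by more than counting error, which cannot exclude that libraries came from the same mouse.

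The question of the design was whether the diet was associated with a different amount of these RNAs. The 16 Asp-GTC copies were all lower on average in WD mice, by 0.20 to 0.53 on the log2 scale, as were all 12 Glu-CTC copies, by 0.06 to 0.13, and 5 of the 8 Glu-TTC copies. Since 13 of these Asp-GTC copies share 1 sequence and 9 of the Glu-CTC copies share another, such tallies do not count separate results. The median over all rows tested was -0.006. Without M1N every Glu copy had a positive log2 fold change, at 0.04 to 0.20. The Asp-GTC copies then had -0.23 to -0.10. None of the 36 copies passed an adjusted p of 0.05 in the quasi-likelihood test of edgeR, adjusted after Benjamini and Hochberg over all 16955 small RNAs tested, when 0% of all tested rows did. The lowest adjusted p of a copy was 0.322. All 36 copies had passed the filter on low counts. At an unadjusted p under 0.05 there were 3 copies, all Asp-GTC and lower in WD mice, against 7.83% of all tested rows that were lower at this threshold. DESeq2 gave 2 such copies and limma-voom 1. A count of 3 in 36 is near the share of the whole table. It was 0 without M1N or without M1W, 1 without M2W, M3W or M5W, and 5 without TN2.

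Summed Asp-GTC reads were 2145, 1396, 1451 and 1342 CPM in M1N, M2N, TN1 and TN2, and 1276, 1207, 1231 and 1269 CPM in M1W, M2W, M3W and M5W. The 4 WD mice were all below the 4 SD mice, and M1N was far above the others. The means were 1584 ± 377 CPM (s.d., n = 4) in SD mice and 1246 ± 32.4 CPM (s.d., n = 4) in WD mice. By edgeR's test on the table with tRNA rows summed by anticodon, the log2 fold change was -0.35 (standard error, SE, 0.18), with an unadjusted p of 0.0697 and an adjusted p of 0.364. In the exact permutation test of the mean log2 CPM, two-sided over 70 assignments of the mice, p was 0.0286, the smallest that 4 against 4 can give, without adjustment for the number of values examined. Without M1N the log2 fold change was -0.17.

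**Figure D3:**
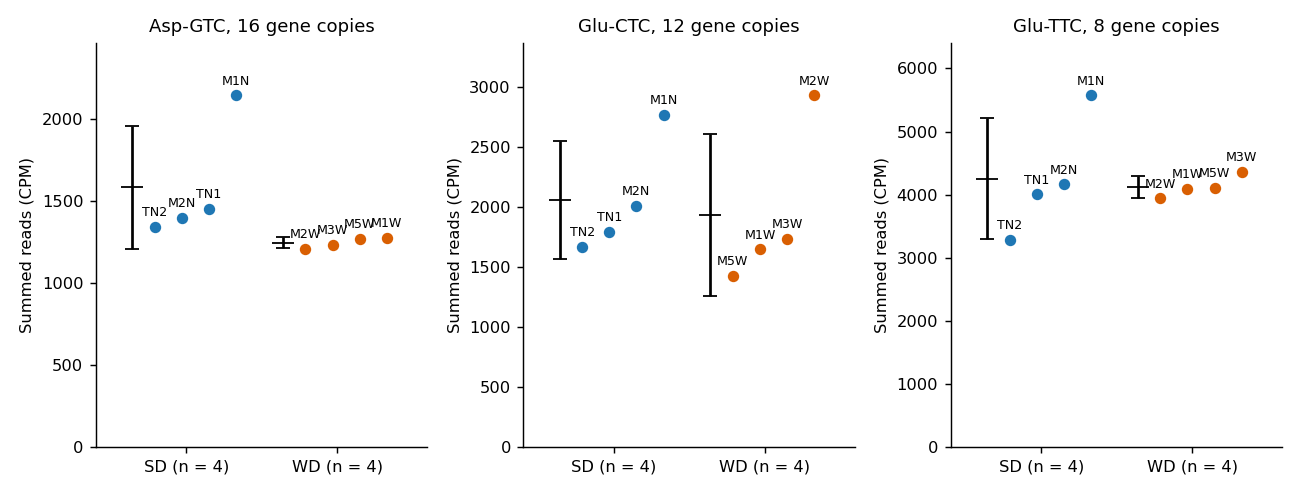
Reads summed over the copies of each anticodon in CPM, by mouse. Points are mice, and the bar to their left is the mean with 1 standard deviation (n = 4 per diet). For Asp-GTC the 4 WD mice lie between 1207 and 1276 CPM, below all SD mice, while for both Glu anticodons the diets overlap.

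The largest difference of a single copy was that of chr10.tRNA856-AspGTC. Its values were 713, 405, 370 and 338 CPM in M1N, M2N, TN1 and TN2, and 314, 320, 321 and 312 CPM in M1W, M2W, M3W and M5W. The diets did not overlap, the SD mice were spread widely and the WD mice lay between 312 and 321 CPM. The log2 fold change was -0.53 (SE 0.21, edgeR unadjusted p = 0.0251 and adjusted p = 0.322), and without M1N it was -0.23. chr11.tRNA397-AspGTC and chr11.tRNA69-AspGTC, with log2 fold changes of -0.44 and -0.39, were the others below an unadjusted p of 0.05, at 0.0384 and 0.0485. The diets overlapped in the former and not in the latter. Their log2 fold changes without M1N were -0.21 and -0.19.

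In 3 of the 36 copies the 4 WD mice were all on 1 side of the SD mice, compared with 5.69% of all tested rows. They were chr10.tRNA856-AspGTC, chr11.tRNA69-AspGTC and chr5.tRNA1316-AspGTC, all lower in WD mice. In chr5.tRNA1316-AspGTC the SD mice had 67.3 to 89.8 CPM and the WD mice 60.1 to 67.1 CPM. The lowest SD mouse, M2N, exceeded the highest WD mouse, M1W, by less than the worth of 1 count.

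The Asp-GTC copies of the chromosome 1 cluster overlapped between the diets. chr1.tRNA1000-AspGTC had 88.1, 61.2, 70.9 and 68.1 CPM in M1N, M2N, TN1 and TN2, and 64.8, 56.6, 59.4 and 61.6 CPM in M1W, M2W, M3W and M5W. M2N was below 2 of the WD mice. Its log2 fold change was -0.25 (SE 0.16, edgeR adjusted p = 0.454). chr1.tRNA1005-AspGTC had 86.4, 62.8, 69.0 and 67.2 CPM in the SD mice in the same order, and 64.8, 57.4, 60.4 and 61.9 CPM in the WD mice, with a log2 fold change of -0.22 (edgeR adjusted p = 0.493). Both copies carry sequence 1 and differed by at most 6 counts in any mouse, so they are not 2 separate results. Without M1N their log2 fold changes were -0.14 and -0.12.

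Summed Glu-CTC reads were 2768, 2013, 1797 and 1665.5 CPM in M1N, M2N, TN1 and TN2, and 1648, 2933, 1738 and 1430 CPM in M1W, M2W, M3W and M5W. M2W was the highest of the 8 mice and M5W the lowest, so that the WD mice enclosed the SD mice. The log2 fold change was -0.09 (SE 0.23, edgeR adjusted p = 0.864). It was -0.363 without M2W, and its sign turned without M1N, at 0.0841, and without M5W, at 0.0316. In M2W, where Glu-CTC was high, miR-143-3p and miR-145-5p, of smooth muscle and stroma, summed to 5921 CPM against 3232 to 4106 CPM in the other WD mice, and the endothelial miR-126-3p and miR-126-5p to 2438 against 1248 to 1775 CPM. In SD mice these sums were 3058 to 4321 and 1323 to 2099 CPM, with M1N and M2N above TN1 and TN2 in both. The part of these markers in the Glu-CTC value was not tested.

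All 12 Glu-CTC copies had log2 fold changes between -0.13 and -0.06. chr1.tRNA1002-GluCTC had 291, 213, 188 and 173 CPM in M1N, M2N, TN1 and TN2, and 172, 309, 183 and 148 CPM in M1W, M2W, M3W and M5W. The highest values were again those of M2W and M1N. Its log2 fold change was -0.10 (SE 0.23, edgeR adjusted p = 0.851). Its ratio to chr1.tRNA1000-AspGTC, its neighbour in the cluster, was 2.40 to 3.48 in 7 mice and 5.46 in M2W.

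Summed Glu-TTC reads were 5573, 4161, 4003 and 3278 CPM in M1N, M2N, TN1 and TN2, and 4096, 3941, 4355 and 4108 CPM in M1W, M2W, M3W and M5W. The SD mice contained both extremes and the WD mice lay within their range. The means were 4254 ± 960 CPM (s.d., n = 4) and 4125 ± 171 CPM (s.d., n = 4), and the log2 fold change was -0.04 (SE 0.18, edgeR adjusted p = 0.917), with the sign again turned, at 0.11, without M1N. chr1.tRNA1547-GluTTC had 1363, 1106, 1028 and 818 CPM in the SD mice, and 1152, 1007, 1107 and 1098 CPM in the WD mice. The diets overlapped throughout, and its log2 fold change was 0.02 (SE 0.17, edgeR adjusted p = 0.968).

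The Glu-TTC copies were not alike in their values. chr9.tRNA961-GluTTC had a log2 fold change of -0.23 (SE 0.21, edgeR adjusted p = 0.596), and without M1N of 0.04. chr13.tRNA105-GluTTC, with the same gene sequence, had 0.21 (SE 0.15, edgeR adjusted p = 0.506). chr3.tRNA286-GluTTC and chr3.tRNA754-GluTTC, which nearly match the Glu-CTC gene, were highest in M2W and M1N, as Glu-CTC was. At 12 to 47 counts per mouse their counting error is large.

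**Figure D4:**
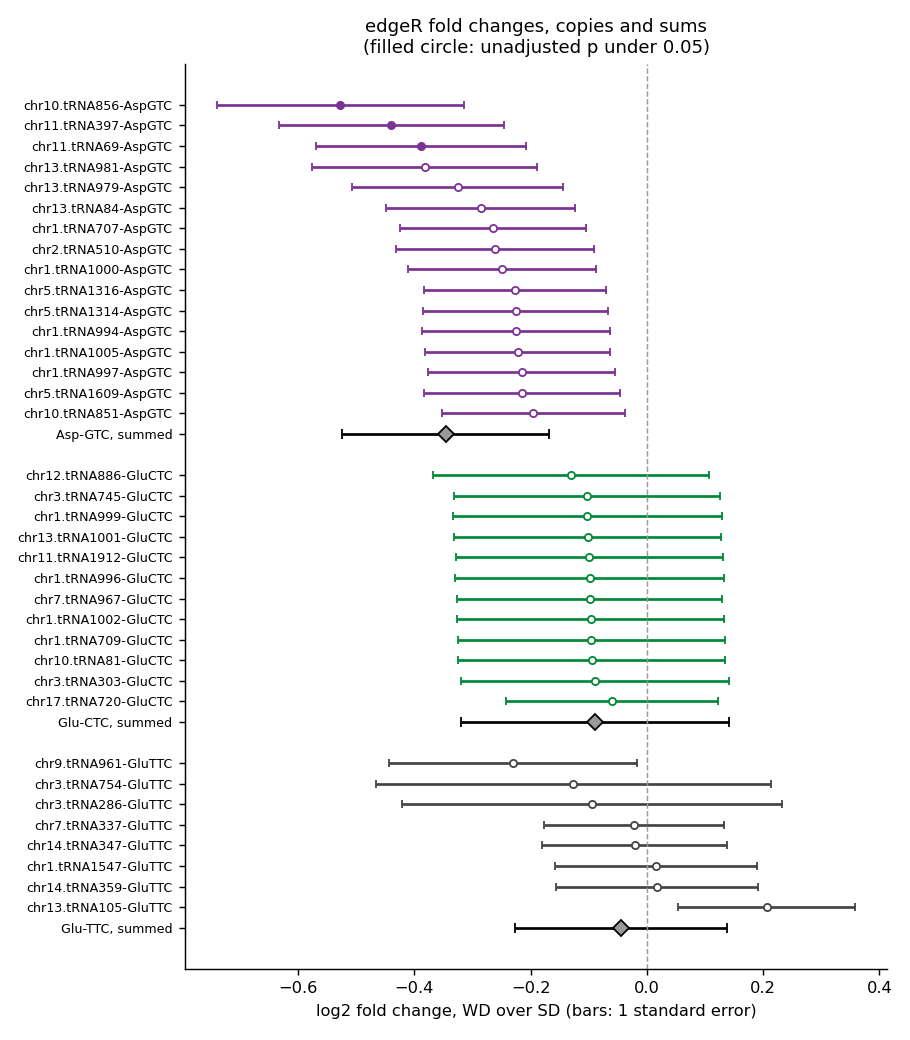
log2 fold changes (WD over SD) of the 36 copies and of the 3 summed anticodons, with bars of 1 standard error from edgeR's quasi-likelihood fit. Filled circles mark an unadjusted p under 0.05 and diamonds the sums. All Asp-GTC copies, 13 of which share 1 sequence, lie left of 0, at -0.53 to -0.20, and the bars of all Glu-CTC copies cross 0.

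The choice of control mice decided how many copies passed. Against M1N and M2N alone, 3 copies passed the adjusted threshold of 0.05 with edgeR, chr10.tRNA856-AspGTC, chr11.tRNA397-AspGTC and chr13.tRNA981-AspGTC, when 20.8% of all tested rows did so. chr10.tRNA856-AspGTC had a log2 fold change of -0.82 in that comparison. Against TN1 and TN2 alone no copy passed the adjusted threshold, when 0.134% of all tested rows did, nor did any at an unadjusted p under 0.05, when 3.79% did. The log2 fold change of chr10.tRNA856-AspGTC was then -0.16. Of the 36 copies, 35 were lower in WD mice by their fitted value in the former comparison and 16, all the Asp-GTC copies, in the latter. Copies of 1 sequence are not separate results in these tallies. The 2 comparisons share the WD mice. No WD mouse has a TN name, and what that name stands for cannot be told apart from other differences between SD mice.

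Ratios within a library do not depend on how libraries are scaled. Glu reads were 3.89, 4.42, 4.00 and 3.68 times Asp reads in M1N, M2N, TN1 and TN2, and 4.50, 5.69, 4.95 and 4.36 times in M1W, M2W, M3W and M5W. M2N was above M5W, and otherwise the WD mice were higher. The mean log2 ratio was 1.996 ± 0.111 (s.d., n = 4) in SD mice and 2.278 ± 0.172 (s.d., n = 4) in WD mice, a difference of 0.28 (exact permutation test, two-sided, p = 0.0571). It was 0.23 against M1N and M2N alone and 0.34 against TN1 and TN2 alone. With a single row kept for each distinct sequence, an alternative added after the data were seen, the difference was 0.335 (exact permutation test, two-sided, p = 0.0286).

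Glu-CTC reads were 0.497, 0.484, 0.449 and 0.508 times Glu-TTC reads in M1N, M2N, TN1 and TN2, and 0.402, 0.744, 0.399 and 0.348 times in M1W, M2W, M3W and M5W. M2W was above all SD mice and the other 3 WD mice below them. The difference of the mean log2 ratio was -0.10 (exact permutation test, two-sided, p = 0.743). The value rested on single mice. It was -0.34 without M2W (exact permutation test, p = 0.0286, the smallest that 4 against 3 allows) and 0.0260 without M5W (exact permutation test, p = 0.971). Each of the 8 mice was left out in turn, and only without M2W was the unadjusted p under 0.05.

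Glu and Asp took 41.4%, 39.5%, 41.2% and 41.7% of the nuclear tRNA reads in M1N, M2N, TN1 and TN2, and 42.2%, 36.6%, 44.0% and 50.3% in M1W, M2W, M3W and M5W. The SD mice were close to each other, whereas M2W was below and the other 3 WD mice above all of them. The means were 40.9% ± 0.992 (s.d., n = 4) and 43.3% ± 5.64 (s.d., n = 4), which did not differ beyond the spread (exact permutation test, two-sided, p = 0.514). The difference of 2.33 percentage points became 4.55 without M2W (exact permutation test, p = 0.0286) and -0.0180 without M5W (exact permutation test, p = 1). As a share of the whole library Glu and Asp took 0.769% ± 0.125 (s.d., n = 4) in SD mice and 0.743% ± 0.0402 (s.d., n = 4) in WD mice.

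**Figure D5:**
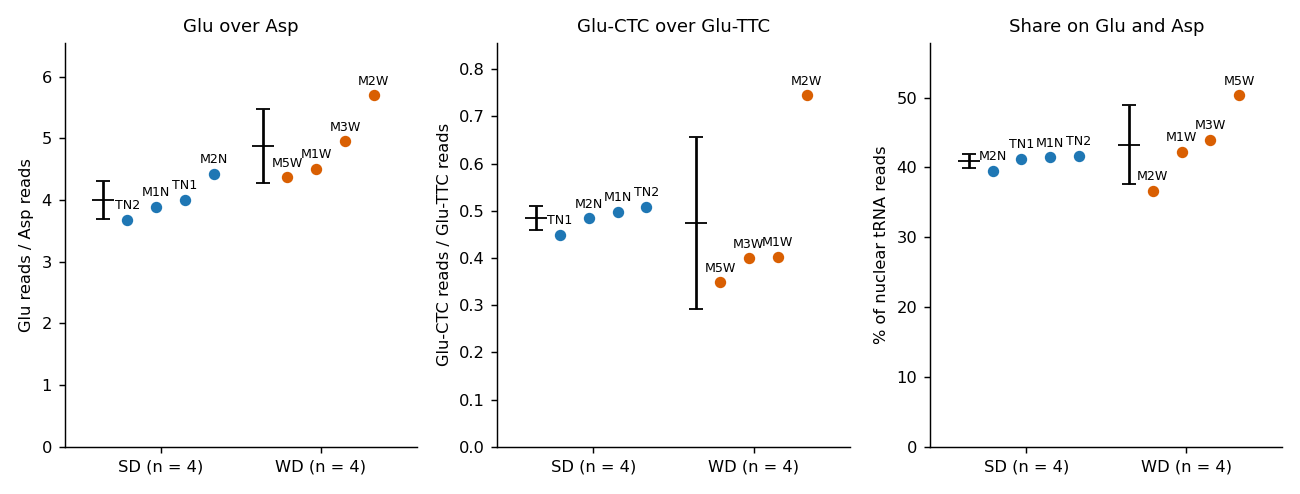
Glu over Asp reads, Glu-CTC over Glu-TTC reads, and the percentage of nuclear tRNA reads on Glu and Asp, by mouse. Points are mice, and the bar to their left is the mean with 1 standard deviation (n = 4 per diet). M2W is the highest WD mouse for both ratios, at 5.69 and 0.744, and the lowest for the share, at 36.6%.

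Of the 191 other nuclear tRNA rows that passed the filter, from 326 listed, 120 had a negative and 71 a positive log2 fold change, with a median of -0.17. At an unadjusted p under 0.05, 13 were lower and 2 higher, when 7.83% of all tested rows were lower and 6.76% higher, and none passed the adjusted threshold by edgeR. The share that was lower is near that of the whole table. The median log2 fold change was -0.25 over the Asp-GTC rows, -0.10 over the Glu-CTC rows and -0.02 over the Glu-TTC rows, and -0.006 over all rows tested. When rows were grouped by amino acid, the median of Asp ranked 7 and that of Glu 13 of 19 groups, counted from the lowest. These values are from all 8 mice and lean on M1N. With M1N left out, the Asp-GTC rows had -0.23 to -0.10 and the Glu rows 0.04 to 0.20. Scaling by the total of nuclear tRNA reads moved the median of all rows to 0.16. On that scale the log2 fold changes were -0.14 for Asp-GTC, 0.05 for Glu-CTC and 0.17 for Glu-TTC, against the 0.16 of all rows.

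In mitochondria Glu has a tRNA gene of its own, mt-Te. It had 8 to 14 counts per mouse, with means of 4.10 ± 0.855 CPM (s.d., n = 4) in SD mice and 3.99 ± 0.361 CPM (s.d., n = 4) in WD mice, a difference far inside the spread (edgeR adjusted p = 0.991). No mitochondrial row was matched by name to the Asp tRNA, mt-Td, so it has no value here. Of the 21 mitochondrial tRNA rows, 2 were higher and 5 lower at an unadjusted p under 0.05, beside 6.76% and 7.83% of all tested rows, and none passed the adjusted threshold.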

How the data were processed

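Small RNA of 8 testes was sequenced on a SOLiD instrument. According to the study's methods, the authors cut reads to 31 bases where no adaptor was found. They placed the reads on mm9 with Bowtie at up to 2 mismatches. The deposited values are raw counts per small RNA and mouse. The treatment of reads that match several genes is not given in the sources used here. The labels' processing notes also list DESeq.

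The deposited counts entered edgeR 4.0.16 under R 4.3.3, with column totals as library sizes, TMM factors, filterByExpr (minimum count 10, minimum total 15) and the quasi-likelihood test with diet as the only term, for the rows and for a table with nuclear tRNA rows summed by anticodon. Benjamini-Hochberg adjustment was made over all small RNAs tested. Standard errors (SE) are approximations from the F statistic. CPM values use TMM factors of each table. Exact permutation tests used all assignments of the mice, 70 for 4 against 4, 35 for 3 against 4 and 15 for 2 against 4. DESeq2 1.42.0 and limma 3.58.1 were alternatives. The edgeR procedure was tested on simulated data. Figures were drawn with matplotlib 3.10.9.

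tRNA positions come from a search of NCBIM37 for 72-base cloverleaf genes with these anticodons. Some chromosomes on which no copy is named were left out of the search. Names carry only a chromosome and a number, so loci were matched to names by the order of the numbers. Loci beyond the names were set aside before the order was compared, 1 in all on the chromosomes searched. All 36 names then found a locus, and the order of anticodons matched on all 12 chromosomes. On chromosomes with only 1 of these anticodons the order could not differ. RefSeq, on GRCm38.p6, lists 36 Glu and Asp tRNA genes with the same numbers per chromosome and anticodon. A position and its sequence therefore rest on name order. They could be exchanged between copies of the same anticodon on a chromosome, also where the sequences differ. Such copies include chr10.tRNA851-AspGTC with chr10.tRNA856-AspGTC, and chr14.tRNA347-GluTTC with chr14.tRNA359-GluTTC. Annotation is GENCODE M1. The gene sequence of the leading Glu-CTC copies is not reported here.

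Named with values were the 4 copies listed for this report, the copies with the highest and lowest mean count of each anticodon, copies whose diets did not overlap, and up to 5 with an unadjusted p under 0.05. chr14.tRNA359-GluTTC, the other copies of sequences 1 and 3 of Glu-TTC, and the copies with high counts within Asp-GTC sequence 1 or with sequences of their own within Glu-CTC were named after their values were seen. Members and lists were chosen with earlier results of these data known. Other cell types were checked by miRNA markers: miR-451 and miR-144-3p of red blood cells summed to 38.3 to 148 CPM and miR-133a-3p of muscle to 4.61 to 12.8 CPM, overlapping between the diets.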

Additional observations from a re-analysis of the deposited data

Results flagged for a closer look

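A mouse far from the other 3 of its group was found in 7 of 96 groups of 4 examined (Dixon's criterion), when chance would flag about 1 in 20, or 4.80. The groups are not independent, since copies share reads and M1N recurs. In SD mice, M1N had 2145 CPM of summed Asp-GTC reads against 1342 to 1451 in the others. M1N also had 64.8 CPM of chr5.tRNA1609-AspGTC against 46.9 to 49.8, 66.8 CPM of chr17.tRNA720-GluCTC against 42.8 to 46.6, and 28.1 CPM of chr12.tRNA886-GluCTC against 17.2 to 18.5. In M1N the count of chr9.tRNA961-GluTTC was 5.29 times the median of the other copies of its sequence, against 3.63 to 3.75 times in the other SD mice. In WD mice, M2W had 25.9 CPM of chr12.tRNA886-GluCTC against 15.6 to 17.1, and 15.3 CPM of chr3.tRNA754-GluTTC against 5.53 to 6.90.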

How the results depend on the processing

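Among the 36 copies, 3 had an adjusted p under 0.05 against M1N and M2N alone and none under any other alternative, including an adjusted p of 0.1. At an unadjusted p under 0.05 the count of 3 became 1 with limma-voom or column totals, 6 when M1N and M2N were the only controls, 0 when TN1 and TN2 were, and 0 to 5 when 1 mouse was left out (0 without M1N or M1W, 5 without TN2). The Asp-GTC fold change kept its sign throughout, at -0.52 to -0.14 on the log2 scale and at -0.42 to -0.17 with 1 mouse left out. That of Glu-CTC turned to 0.16 against TN1 and TN2 alone, to 0.0504 with scaling to nuclear tRNA reads, and ranged from -0.363 to 0.0841 with 1 mouse left out, positive without M1N or M5W. That of Glu-TTC turned to 0.0199 with column totals, 0.18 against TN1 and TN2 alone, 0.17 with scaling to nuclear tRNA reads, 0.0110 with rows of type tRNA alone and 0.0258 without chr9.tRNA961-GluTTC, and ranged from -0.15 to 0.11 with 1 mouse left out. None of these Glu values passed the adjusted threshold. The log2 ratio of Glu to Asp was 0.21 to 0.33 with 1 mouse left out and 0.335 with a row per distinct sequence, an alternative chosen after seeing the data, at an unadjusted p of 0.0286 in the exact permutation test, the smallest that 4 against 4 allows. The log2 ratio of Glu-CTC to Glu-TTC ranged from -0.34 (without M2W) to 0.0260 (without M5W), and the share of nuclear tRNA reads from a difference of 4.55 (without M2W) to -0.0180 (without M5W) percentage points. As a share of the whole library that difference was -0.0259 percentage points. The cause was not tested in any of these cases.

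The numbers 1 and 2 in the names M1N, M1W, M2N and M2W are shared between diets. Deviations from the group means correlated at -0.08 and 0.23 in these pairs, and at 0.23 for M1N with M2W and -0.06 for M2N with M1W. These values cannot tell whether the numbers pair the mice, and the labels do not say. With the number as a replicate block on these 4 mice, 0 copies passed the adjusted and 3 the unadjusted threshold, the log2 fold changes were -0.48 for Asp-GTC, -0.11 for Glu-CTC and -0.26 for Glu-TTC, the log2 ratio of Glu to Asp differed by 0.29, that of Glu-CTC to Glu-TTC by 0.16, and the share by -1.06 percentage points, the last 2 with the sign turned.

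Of the copies named, chr1.tRNA1002-GluCTC turned to 0.16 against TN1 and TN2 alone and ranged from -0.37 to 0.0787 with 1 mouse left out. chr1.tRNA1547-GluTTC turned to -0.18 against M1N and M2N alone and to -0.19 with the replicate block, and ranged from -0.10 to 0.15. chr9.tRNA961-GluTTC turned to 0.0899 against TN1 and TN2 alone and ranged from -0.35 to 0.0440. chr1.tRNA1000-AspGTC and chr1.tRNA1005-AspGTC kept their sign under every alternative run, at -0.32 to -0.14 and -0.28 to -0.12 with 1 mouse left out, nearest to 0 without M1N. Counts of 12 to 47 per mouse limit what can be seen in the chr3 Glu-TTC copies.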
